A study of Schmidtea mediterranea with 24 samples.

Results

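The change in RNA abundance over the first 2 days of regeneration under egr-2 RNAi was measured in tail fragments of the planarian flatworm Schmidtea mediterranea. The 4 egr-2 RNAi libraries taken 2 days after amputation were compared with the 4 egr-2 RNAi libraries taken at 0 h. All assembled transcript contigs (IDs) that passed edgeR's filter on low counts in these 8 libraries were kept, 17518 of the 28069 in the table. The study holds 24 libraries, with 4 biological replicates at 0 h, 2 days and 4 days under egr-2 RNAi and under control RNAi. All animals belonged to the asexual clonal line CIW4, and all, controls included, had been given 6 feedings of liver with 2 µg of double-stranded RNA each before the cut. The double-stranded RNA was directed against egr-2 or, in controls, against egfp, the coding sequence of a jellyfish protein that planarians lack. Each replicate pooled the front part of 10 tail fragments, the end that faces the wound, so a value describes a pool and not an animal, and the replicates share 1 clonal background.

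Planarians rebuild missing body parts from neoblasts, dividing stem cells that persist throughout adult life and are the source of all new tissue. A tail fragment has lost its head and pharynx; it first covers the wound, then raises neoblast division and gathers unpigmented new tissue, the blastema, at the cut. Early growth response (Egr) proteins are zinc finger transcription factors, and several planarian egr genes are known to be switched on by wounding. In RNAi by feeding, double-stranded RNA taken up through the gut spreads through the body and lowers the transcript of matching sequence. The table gives IDs without gene names or descriptions, so the egr-2 transcript, the cell types behind each ID and the labelled tissue were not checked here, and no pathway or marker list was applied.

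Total counts were 15433992 to 21132548 per library at 2 days and 18829638 to 26924688 at 0 h. The filter asked for 10 counts scaled to library size, equal to 0.489 counts per 1000000 (CPM), in at least 4 libraries, and the IDs that passed held 99.8% to 99.9% of the counts of each library. The ID just inside the threshold reached 0.490 CPM in 4 libraries and the one just outside reached 0.485 CPM. No ID left out had a mean above 0.977 CPM. Replicate 1 at 0 h stood apart from its group. The SD of its log2 deviations from the mean of its mates was 0.588, against 0.317 to 0.358 for the other 0 h libraries and 0.268 to 0.333 for the 2 day libraries. The main counts of calls and the results of the named IDs are also given without it, while counts by abundance, length or scaling use all 8 libraries.

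A large share of the IDs changed over the 2 days, most of them by less than 2-fold. At 2 days 8245 of 17518 IDs (47.1%) differed from 0 h by edgeR's quasi-likelihood test at an adjusted p below 0.05. Of these, 4112 rose (23.5% of those tested) and 4133 fell (23.6%). The median log2 fold change, 2 days over 0 h, was 0.52 among rises (interquartile range 0.35 to 0.83) and -0.60 among falls (interquartile range -1.01 to -0.38). It was 0.02 over all tested IDs, whose median absolute log2 fold change was 0.32. The 4 values at 2 days did not overlap the 4 at 0 h for 44.7% of all tested IDs, among them 7335 of the called IDs. Without replicate 1 at 0 h, 8822 IDs (50.4%) were called, 4495 as rises and 4327 as falls. Of the calls made with all 8 libraries 7920 remained in the same direction, 0 turned round, and 132 rises and 193 falls were lost. These are bulk samples, so fewer cells of a type and less RNA per cell cannot be told apart. No uncut tissue sampled at 2 days was analysed here, so time since amputation and time since the last feeding cannot be told apart either.

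**Figure D1:**
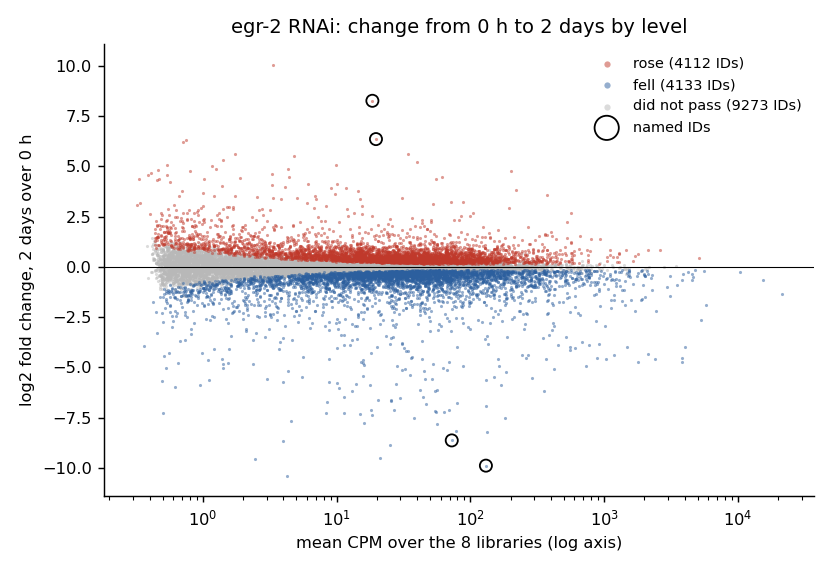
Log2 fold change of each tested ID under egr-2 RNAi, 2 days over 0 h (vertical axis), against its mean CPM over the 8 libraries (horizontal log axis), with 4112 rises in red, 4133 falls in blue and IDs that did not pass in grey. The 4 IDs named in the text are circled, 2 above 6 and 2 below -8 on the log2 scale.

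With the main scaling (TMM), large falls outnumbered large rises, an order that turned round at 2-fold with total counts alone. At least 2-fold, 1059 IDs fell (6.05% of those tested) and 704 rose (4.02%). At least 4-fold the counts were 326 falls and 171 rises, at least 8-fold 173 and 65, at least 16-fold 118 and 35, and at least 32-fold 71 and 13. Called changes under 1.5-fold leaned the other way, with 2328 rises and 2017 falls. A change larger than 1.5-fold passed edgeR's test against that size for 2073 IDs (11.8%), 1256 falls and 817 rises. Without replicate 1 at 0 h, 1062 IDs fell and 737 rose at least 2-fold, 325 and 169 at least 4-fold, 175 and 67 at least 8-fold, 116 and 39 at least 16-fold, and 69 and 11 at least 32-fold.

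**Figure D2:**
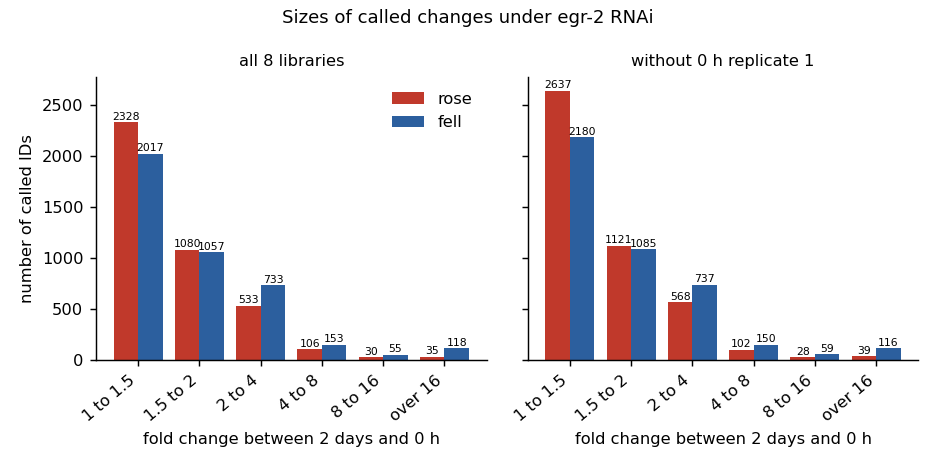
Number of called IDs (vertical axis) that rose (red) or fell (blue) under egr-2 RNAi in classes of fold change between 2 days and 0 h (horizontal axis), with all 8 libraries on the left and without 0 h replicate 1 on the right. In both panels rises outnumber falls in the class under 1.5-fold and falls outnumber rises in every class above 2-fold.

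These balances depend on how libraries are scaled. TMM assumes that most IDs do not change, and its factors averaged 1.10 ± 0.014 at 2 days and 0.906 ± 0.012 at 0 h (SD, n = 4 each). Scaling by total counts alone shifted the median log2 fold change upward by 0.28. It called 10103 IDs, 78.3% of them rises, against 49.9% with TMM. On that scale the at least 2-fold class turned round, with 1484 rises and 693 falls, and of the changes called larger than 1.5-fold 70.8% were rises, against 39.4%. At least 8-fold there were still 158 falls and 81 rises, and at least 32-fold 61 falls and 18 rises. Of the 4133 falls 505 had a positive value under total scaling, though 0 of the 1059 falls of at least 2-fold did. All 4112 rises stayed rises.

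RNA was spread over more IDs at 2 days. The number of IDs that together hold 50% of a library's counts does not use any scaling factor. It was 786, 814, 793 and 823 in the 2 day libraries and 505, 533, 516 and 524 in the 0 h libraries. The groups did not overlap, and replicate 1 was the lowest of the 0 h libraries. The mean was 804 ± 17.4 at 2 days and 519.5 ± 11.9 at 0 h (SD, n = 4 each), a difference of 284.5 (exact two-sided permutation test, p = 0.0286, the smallest that 4 against 4 can give). After division by contig length the difference was 255.25.

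The 1059 IDs that fell at least 2-fold held a large part of the RNA of fresh fragments. Chosen on the egr-2 RNAi libraries, they made up 6.49% ± 0.30 of the counts at 2 days and 21.0% ± 0.58 at 0 h (SD, n = 4 each). In the control RNAi libraries, which had no part in choosing them, they held 6.63% ± 0.30 at 2 days and 19.6% ± 0.39 at 0 h (SD, n = 4 each). The 704 IDs that rose at least 2-fold held 3.59% ± 0.086 at 2 days and 1.02% ± 0.031 at 0 h under egr-2 RNAi (SD, n = 4 each). Under control RNAi they held 3.49% ± 0.067 at 2 days and 1.05% ± 0.023 at 0 h (SD, n = 4 each). The 3408 smaller rises carried more RNA than the large ones, 26.6% ± 0.26 at 2 days and 15.9% ± 0.43 at 0 h under egr-2 RNAi (SD, n = 4 each). The 3074 smaller falls held 32.1% ± 0.17 at 2 days and 36.5% ± 0.33 at 0 h (SD, n = 4 each).

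Levels were also ranked per length, in TPM (counts per base of contig, scaled to a total of 1000000). The 10 IDs with the highest mean TPM in control fragments at 0 h were taken, so that the egr-2 RNAi libraries had no part in the choice. Under egr-2 RNAi 9 of these 10 fell and 0 rose, with log2 fold changes from -4.60 to 0.04. Of all tested IDs 23.6% fell, and 37.7% of the highest of 5 equal classes by mean CPM. They held 5.32% ± 0.37 of TPM at 2 days and 11.1% ± 0.47 at 0 h (SD, n = 4 each). Of the 10 IDs highest under egr-2 RNAi at 2 days, 7 fell and 0 rose.

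Few IDs came close to switching on or off. Under 0.5 CPM in every 0 h library and at 1 CPM or more in every 2 day library stood 27 IDs, with a median of 2.22 CPM at 2 days, and 1 of them averaged 10 CPM or more. The reverse held for 39 IDs, with a median of 5.92 CPM at 0 h, 14 of them at 10 CPM or more and the highest at 49.8 CPM. Over the same interval the control RNAi libraries had 31 IDs of the first kind, 13 of them shared, and 32 of the second, 24 of them shared. These control counts cover only IDs that passed the filter on the egr-2 RNAi libraries. Among all tested IDs, 265 reached the filter's level in libraries of 1 time point alone. Such an ID had to differ between the groups, and 167 of the 265 rose and 66 fell.

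The 2 largest rises that met the naming rule (called with and without replicate 1, at least 10 CPM in the higher group, a count in every library, no overlap) were contigs nearly absent from fresh fragments. The contig dd_Smed_v6_10584_0_1, of 541 bases, had 37.0, 34.5, 47.1 and 28.9 CPM in the 2 day libraries and 0.126, 0.223, 0.0479 and 0.0852 CPM in the 0 h libraries, from 1 to 4 counts each. Every 2 day library lay far above every 0 h library. It rose by 8.26 on the log2 scale (SE 0.27, adjusted p = 1.1e-10), and 8.29 without replicate 1. All its 0 h libraries lay below the filter's 0.489 CPM, so this contig was tested only through the 2 day libraries. Such an ID had to differ between the groups, so its p-value is no separate evidence of a rise. Over the 3 time points it averaged 0.121 ± 0.076, 36.9 ± 7.61 and 12.3 ± 1.20 CPM under egr-2 RNAi at 0 h, 2 days and 4 days (SD, n = 4 each). Under control RNAi the means were 0.147 ± 0.096, 40.4 ± 5.59 and 24.6 ± 1.93 CPM (SD, n = 4 each). In both conditions the 2 day libraries were the highest of the 3 times.

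The contig dd_Smed_v6_48489_0_1, of 1262 bases, had 42.6, 42.1, 25.2 and 45.6 CPM at 2 days and 0.189, 0.893, 0.670 and 0.170 CPM at 0 h. Replicate 3 was the low library at 2 days, and the groups did not overlap. The log2 fold change was 6.35 (SE 0.31, adjusted p = 3.2e-09), and 6.15 without replicate 1. Under egr-2 RNAi it averaged 0.481 ± 0.360, 38.9 ± 9.26 and 6.30 ± 1.71 CPM at 0 h, 2 days and 4 days (SD, n = 4 each). In control fragments the means were 0.380 ± 0.207, 19.4 ± 4.21 and 4.58 ± 0.668 CPM (SD, n = 4 each). Every egr-2 RNAi library at 2 days lay above the highest control library, 23.4 CPM. The contig was picked for high values in those egr-2 RNAi libraries, a choice that itself favours this order. At 2 days the conditions did not overlap for 7.12% of all tested IDs. The change over time was not called different between the conditions (difference of log2 fold changes 0.72, SE 0.73, adjusted p = 0.89).

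The 2 largest falls that met the same naming rule were of contigs abundant at 0 h and nearly absent at 2 days. The contig dd_Smed_v6_534_0_1, of 581 bases, had 0.682, 0.0932, 0.259 and 0.133 CPM at 2 days, from 2 to 11 counts each, and 311, 297, 285 and 151 CPM at 0 h. Replicate 4 was the low library at 0 h and still far above every 2 day library. The log2 fold change was -9.89 (SE 0.36, adjusted p = 2.3e-10), and -9.80 without replicate 1. On the per-length scale its mean was 0.721 TPM at 2 days and 484 TPM at 0 h. Under egr-2 RNAi it averaged 261 ± 74.1, 0.292 ± 0.270 and 0.260 ± 0.119 CPM at 0 h, 2 days and 4 days (SD, n = 4 each), and its range at 4 days overlapped that at 2 days. The control means were 322 ± 87.0, 0.236 ± 0.133 and 0.272 ± 0.080 CPM (SD, n = 4 each).

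The contig dd_Smed_v6_1501_0_1, of 771 bases, had 0.496, 0.233, 0.519 and 0.222 CPM at 2 days and 173, 165, 148 and 92.2 CPM at 0 h. Replicate 4 was again the lowest of the 0 h libraries. The log2 fold change was -8.64 (SE 0.28, adjusted p = 1.1e-10), and -8.54 without replicate 1. It averaged 145 ± 36.5, 0.368 ± 0.162 and 0.472 ± 0.215 CPM under egr-2 RNAi at 0 h, 2 days and 4 days (SD, n = 4 each). In control fragments it had means of 204 ± 54.3, 0.338 ± 0.222 and 0.566 ± 0.242 CPM (SD, n = 4 each).

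**Figure D3:**
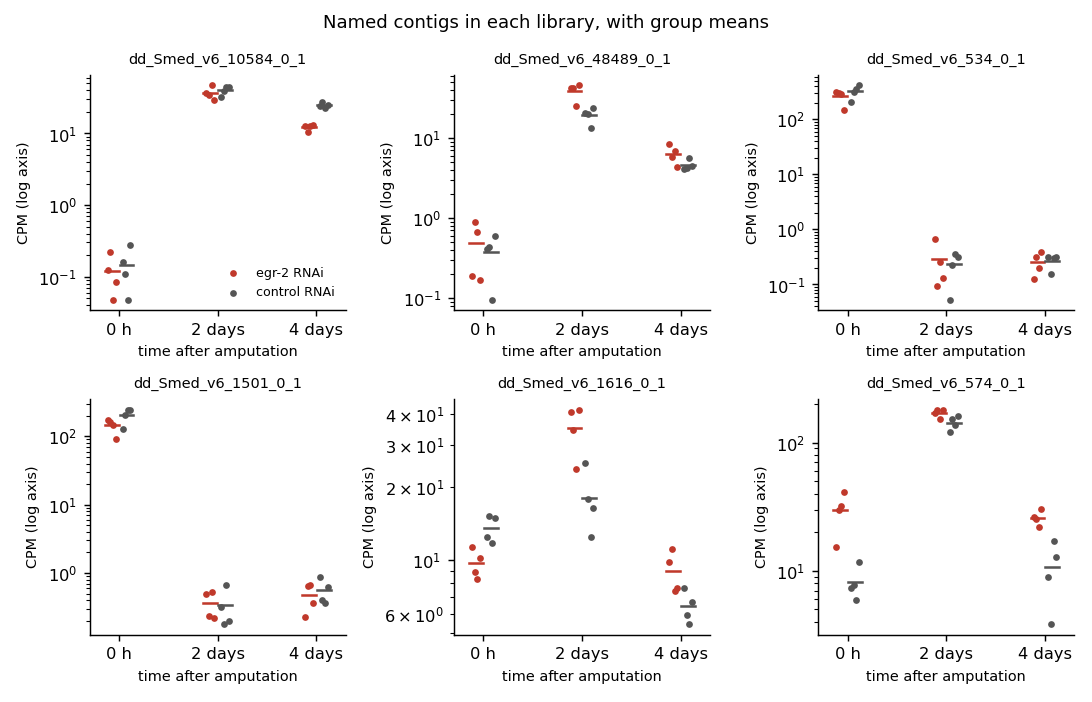
CPM on a log axis of the 6 contigs named by rule in each library at 0 h, 2 days and 4 days after amputation, egr-2 RNAi in red and control RNAi in grey, with bars at the group means. At 2 days the egr-2 RNAi points of dd_Smed_v6_10584_0_1 and dd_Smed_v6_48489_0_1 lie at or above 25.2 CPM and those of dd_Smed_v6_534_0_1 and dd_Smed_v6_1501_0_1 below 1 CPM.

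The 20 largest rises under the same naming rule had log2 fold changes of 3.37 to 8.26 and means of 11.5 to 687 CPM at 2 days. Under egr-2 RNAi 17 of the 20 were lower at 4 days than at 2 days with no overlap and 1 was higher, against 16.8% lower and 14.97% higher of all tested IDs. In control fragments all 20 were called as rises, with log2 fold changes of 2.54 to 8.02, and 15 were lower and 1 higher at 4 days than at 2 days with no overlap, against 14.1% in each direction of all tested IDs. They were picked for high values in the egr-2 RNAi libraries at 2 days, a choice that itself favours lower values at 4 days there, while the control libraries had no part in it. The 20 largest falls measured 6.61 to 9.89 on the log2 scale, with means of 0.146 to 2.17 CPM at 2 days. Of these, 13 were higher at 4 days than at 2 days with no overlap under egr-2 RNAi and 12 under control RNAi, beside the shares of all tested IDs given above, and 0 were lower in either condition. They were picked for low values in the egr-2 RNAi libraries at 2 days, a choice that itself favours higher values at 4 days there. All 20 fell in control fragments as well. Of all IDs tested in control fragments 55.7% were called, rises and falls together, which is the share to set beside both sets of 20.

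Changes were called more often among abundant contigs, where counts are higher. The IDs were divided by mean CPM into 5 classes of equal size. In the lowest class (0.319 to 2.00 CPM) 11.8% rose and 8.33% fell, and in the highest (58.0 CPM and above) 30.2% rose and 37.7% fell. Large rises were spread the other way, with 302 rises of at least 2-fold in the lowest class and 87 in the highest. Falls of at least 2-fold numbered 214 in the lowest class and 292 in the highest.

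Long contigs were called as rises more often than short ones, though large rises were fewer among them. Over all tested IDs, in 5 length classes of equal size, 15.5% of the shortest and 32.9% of the longest rose. The share of falls followed no such order, at 20.2%, 22.8%, 25.9%, 27.3% and 21.7% from the shortest class to the longest. Rises of at least 2-fold went the other way, with 226 in the shortest class and 75 in the longest. Falls of at least 2-fold numbered 286 and 92 in the same order. The 10004 IDs that averaged 10 CPM or more were divided by length into 5 classes of equal size. In the shortest class (207 to 971 bases) 21.5% rose and 37.9% fell, with a median log2 fold change of -0.11. In the longest class (2751 to 19524 bases) 34.4% rose and 21.0% fell, with a median of 0.10. Here too the shortest class had more rises of at least 2-fold, 63 against 33 in the longest, and more falls of that size, 207 against 43. Among these more abundant IDs the share of falls dropped at each step over the 5 classes. In control fragments 31.3% of the same shortest class rose and 39.6% fell, and 38.6% of the longest rose and 31.5% fell. Of the tested IDs, 303 share an assembly component with another contig, so reads may be divided between them. Of these 141 (46.5%) were called, a share near the 47.1% of all tested IDs, and 6 of the 144 components with 2 or more tested contigs held both a rise and a fall.

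Replicates at 2 days were tighter than those at 0 h. Over the 10004 IDs the median coefficient of variation between replicates was 5.75% at 2 days and 9.01% at 0 h. Without replicate 1 the 0 h value was 6.66% (n = 3). In replicate 1, 34 of these IDs lay 4-fold or more below the mean of the other 3 libraries, and 0 lay as far above it. The 34 were picked for their low value in that library, so a shift on leaving it out follows from the choice. With it 5 were called as rises and 0 as falls, and without it 10 were called as rises and 8 as falls. Of all 17518 tested IDs, 4112 were called as rises and 4133 as falls with it, and 4495 and 4327 without it. Their median log2 fold change was 0.33 with it and 0.03 without it, and the highest was 5.61 with it and 5.31 without it. Across all tested IDs leaving it out moved the log2 fold change by a median of 0.05, and by more than 0.25 for 5% of IDs.

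The same interval under control RNAi, in libraries that share none with these, gave 9953 calls of 17875 IDs (55.7%). Control replicates were tighter than egr-2 RNAi replicates at both times. The median coefficient of variation was 4.96% against 5.75% at 2 days and 5.82% against 9.01% at 0 h, or 6.66% without replicate 1 of egr-2 RNAi. The part of this in the higher count was not tested. Of 162 IDs that rose at least 4-fold under egr-2 RNAi and were tested in both conditions, 161 also rose in control fragments, with a median log2 fold change of 2.66 under egr-2 RNAi and 2.52 under control RNAi. Of 318 that fell at least 4-fold, 317 also fell in control fragments, with medians of -3.18 and -2.94 in the same order. Classes chosen for their size in 1 condition tend to be smaller in the other, so the choice was also made in control fragments. The 149 IDs that rose at least 4-fold there had a median log2 fold change of 2.68 under egr-2 RNAi and 2.68 under control RNAi, and all 149 rose under egr-2 RNAi. The 288 that fell at least 4-fold there had medians of -3.52 under egr-2 RNAi and -3.24 under control RNAi, and 286 fell under egr-2 RNAi. Falls of at least 4-fold thus had the larger median under egr-2 RNAi whichever condition chose them, a difference given here without a test.

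**Figure D4:**
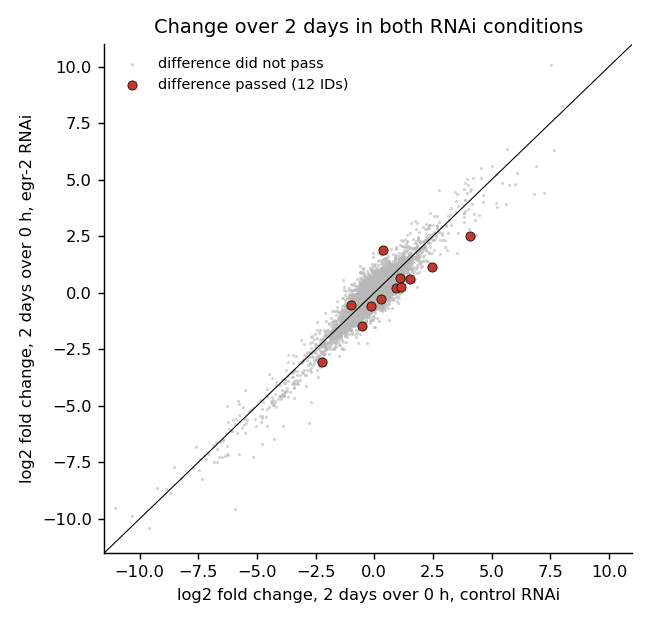
Log2 fold change, 2 days over 0 h, of the 17314 IDs tested in both conditions, under egr-2 RNAi (vertical axis) and control RNAi (horizontal axis), with the line of equal change. The 12 IDs whose change differed between the conditions are in red, with changes between -3.08 and 4.09 on the log2 scale.

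Whether the change over 2 days itself depended on the RNAi condition was tested as an interaction over the 16 libraries. It differed for 12 of 18661 IDs (0.0643%), 10 with the lower and 2 with the higher change under egr-2 RNAi, and 1367 IDs had an unadjusted p below 0.05. A call in 1 condition alone was thus seldom a called difference: 832 IDs were called only under egr-2 RNAi and 2465 only under control RNAi, with the difference called for 1 ID in each set. Without replicate 1 of egr-2 RNAi at 0 h 35 IDs (0.188%) differed, all 12 among them, 8 with the higher change. The count rested on single libraries. Of the egr-2 RNAi libraries, leaving out replicate 4 at 0 h left 4 calls, and leaving out replicate 1 or 2 at 2 days left 7 or 3. Of the control libraries, leaving out replicate 1 at 0 h left 6 calls, and leaving out replicate 2, 3 or 4 at 2 days left 3, 5 or 3.

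The 12 differing IDs differed between conditions mainly at 0 h. At 0 h the egr-2 RNAi and control RNAi libraries did not overlap for 11 of the 12, against 10.2% of all tested IDs, and at 2 days for 1 of the 12, against 7.12% of all tested IDs. The interaction test uses the same values, so these counts describe where the difference lies and are no separate evidence of it. Of the 10 with the lower change, 9 were higher at 0 h under egr-2 RNAi than in any control library. Both of those with the higher change were lower at 0 h than in any control library. By direction over time, 5 of the 10 rose in both conditions, 3 fell in both, 1 rose in control fragments only and 1 went opposite ways. Without replicate 1 at 0 h, the conditions did not overlap for 33 of the 35 IDs at 0 h. The share of all tested IDs was not computed for this setting. Fewer libraries overlap less often, so the 10.2% above is no background for it. At 2 days the conditions did not overlap for 8 of the 35, beside the same 7.12% of all tested IDs.

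**Figure D5:**
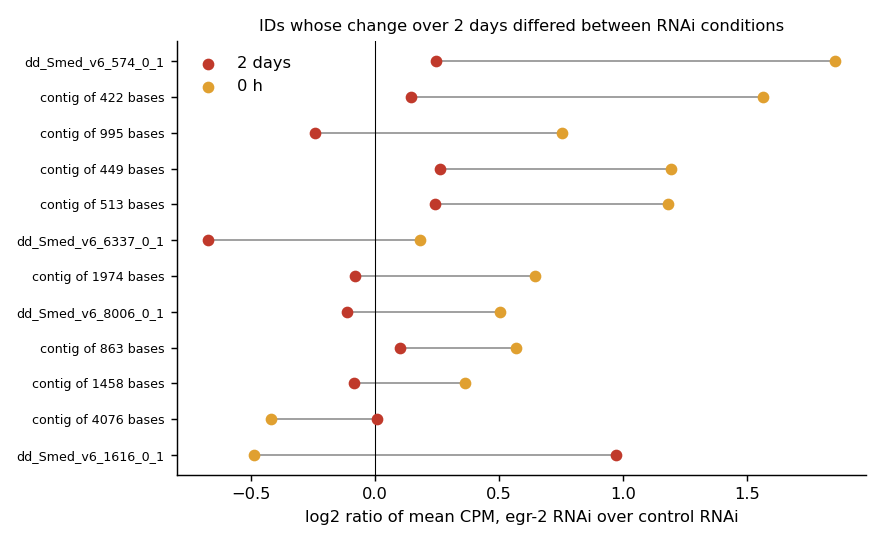
Log2 ratio of mean CPM, egr-2 RNAi over control RNAi, at 2 days (red) and at 0 h (yellow) for the 12 IDs whose change over 2 days differed, with contigs not named in the text given by length. The 0 h points run from -0.49 to 1.85 and most 2 day points lie near 0, with 0.97 for dd_Smed_v6_1616_0_1 and -0.67 for dd_Smed_v6_6337_0_1 farthest from it.

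The contig with the most positive difference was dd_Smed_v6_1616_0_1, of 692 bases. Under egr-2 RNAi it had 40.7, 34.5, 23.8 and 41.8 CPM at 2 days and 11.3, 8.93, 8.33 and 10.2 CPM at 0 h, a log2 rise of 1.88 (SE 0.16, adjusted p = 8.1e-07). Under control RNAi it had 25.2, 17.9, 12.5 and 16.3 CPM at 2 days and 12.4, 15.2, 11.8 and 14.9 CPM at 0 h. Those groups overlapped, and the change of 0.37 did not pass (adjusted p = 0.054). The change differed by 1.51 (SE 0.26, adjusted p = 0.033, and 0.0093 without replicate 1). That call was lost in 12 of the 16 fits that left out 1 library each, and its adjusted p ran from 2.6e-05 to 0.093 over all alternatives.

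The contig with the most negative difference was dd_Smed_v6_574_0_1, of 723 bases. It rose steeply in both conditions but started higher under egr-2 RNAi. Under egr-2 RNAi it had 169, 178, 152 and 181 CPM at 2 days and 15.5, 29.8, 32.2 and 41.1 CPM at 0 h. Under control RNAi it had 121, 152, 138 and 162 CPM at 2 days and 7.29, 7.72, 5.97 and 11.8 CPM at 0 h. Replicate 1 was the lowest egr-2 RNAi library at 0 h, and all 4 lay above the highest control library. The log2 fold change was 2.52 under egr-2 RNAi and 4.09 under control RNAi, a difference of -1.58 (SE 0.29, adjusted p = 0.038, and 5.5e-05 without replicate 1). The call was lost in 13 of the 16 fits that left out 1 library each, and the adjusted p ran from 5.5e-05 to 0.11 over all alternatives.

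A pair of IDs was singled out after their values were seen. The contig dd_Smed_v6_6337_0_1, of 1501 bases, was the one whose conditions overlapped at 0 h and not at 2 days. It had 20.7, 23.3, 22.9 and 17.2 CPM at 2 days and 176, 163, 189 and 188 CPM at 0 h under egr-2 RNAi. Under control RNAi it had 27.0, 30.3, 39.0 and 37.6 CPM at 2 days and 171, 153, 166 and 143 CPM at 0 h. Its log2 fold change was -3.08 under egr-2 RNAi and -2.25 under control RNAi, a difference of -0.82 (SE 0.15, adjusted p = 0.038, and 0.0093 without replicate 1). The contig dd_Smed_v6_8006_0_1, of 1061 bases, was the one that went opposite ways. Under egr-2 RNAi it had 23.3, 21.1, 20.6 and 22.0 CPM at 2 days and 26.8, 25.5, 25.2 and 30.2 CPM at 0 h, a log2 fold change of -0.30 (adjusted p = 0.0090). Under control RNAi it had 21.7, 23.8, 24.4 and 24.1 CPM at 2 days and 19.4, 19.9, 18.0 and 18.8 CPM at 0 h, a log2 fold change of 0.30 (adjusted p = 7.1e-04). The difference was -0.59 (SE 0.10, adjusted p = 0.033, and 0.0093 without replicate 1). For this pair the fits that left out other libraries are not given, and in such fits as few as 3 IDs were called in all.

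The authors' deposited table lists this comparison for 16812 IDs and calls 9701 of them at a false discovery rate below 0.05, 4965 higher and 4736 lower at 2 days. Of the IDs called by the quasi-likelihood test, 8102 were also called in the authors' deposited table, with 0 opposite directions and a median absolute difference in log2 fold change of 0.0010.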

How the data were processed

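Raw read counts per contig ID for 24 libraries were deposited by the authors, with a table of comparisons with log2 fold changes and p-values adjusted as false discovery rates, per the file headers. The submitters' processing notes name FastQC 0.11.5, Bowtie2 2.3.1, featureCounts and Subread 1.6.3, and the design text names BBDuk and edgeR. The sources used here give no counting settings or strand use, so reads of overlapping or antisense transcripts may not be separated.

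The titles give the RNAi condition and time of each library, with 4 biological replicates each. Whether replicates came from separate RNAi experiments is not stated, so p-values measure the spread between these pools. Replicate pairs of the compared groups had a chi-square per degree of freedom of 3.50 to 25.9, more than counting noise, so each library counted as 1 replicate. Filtering used filterByExpr (minimum count 10, minimum total 15). Tests were edgeR 4.0.16 quasi-likelihood tests (limma 3.58.1, R 4.3.3) with TMM factors and Benjamini-Hochberg adjustment over all tested IDs, called at 0.05, on the 8 libraries of the comparison, the 8 control libraries, or all 16 for the interaction. A change above 1.5-fold was tested with glmTreat. Standard errors were derived from the F statistic. Printed CPM are TMM-normalised over the 24 libraries, with no pseudocount, except those of the filter, which are scaled by total counts alone. Deviations were taken on log2 CPM (prior count 2). The steps were tested on simulated counts.

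The naming rule took the 2 largest rises and falls and the most positive and most negative difference. For the comparison of times it asked for a call with and without 0 h replicate 1, at least 10 CPM in the higher group, a count in every library, no overlap and a component of 1 contig, and 2671 rises and 2935 falls met it. Members and lists were chosen with earlier results of these data known. Gene lists planned for named genes could not be applied to IDs. Alternatives were RLE and total scaling, other filters, a fit over 24 libraries, DESeq2 1.42.0, a likelihood ratio test, the replicate number as a block and leaving out each library. Counts divided by contig length were added after seeing the data.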

Additional observations from a re-analysis of the deposited data

Results flagged for a closer look

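The search for a distant library covered 40 groups of 4 and found 4, and chance alone marks about 1 group in 20. In egr-2 RNAi fragments at 0 h, replicate 1 had an SD of log2 deviations of 0.588, against 0.317 to 0.358 for its mates. The contig dd_Smed_v6_48489_0_1 stood at 25.2 CPM in replicate 3 of egr-2 RNAi at 2 days, against 42.1 to 45.6 CPM in the other 3. The contig dd_Smed_v6_534_0_1 stood at 151 CPM in the fragments of 0 h, egr-2 RNAi replicate 4, against 285 to 311 CPM in the others, and at 0.153 CPM in replicate 2 of control RNAi at 4 days, against 0.301 to 0.321 CPM.

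The change from 0 h to 2 days differed between the RNAi conditions for both IDs named by the difference rule, by 1.51 on the log2 scale for dd_Smed_v6_1616_0_1 (adjusted p = 0.033) and by -1.58 for dd_Smed_v6_574_0_1 (adjusted p = 0.038), in edgeR's quasi-likelihood test of the interaction. Both were picked among IDs with this call, so the calls follow from the choice. With 1 library left out at a time, the call was lost in 12 of 16 fits for dd_Smed_v6_1616_0_1 and in 13 for dd_Smed_v6_574_0_1. The egr-2 RNAi and control RNAi libraries did not overlap at 0 h for either contig, and overlapped at 2 days for both. The log2 ratio of mean CPM, egr-2 RNAi over control RNAi, was still larger at 2 days for dd_Smed_v6_1616_0_1, 0.97 against -0.49 at 0 h. For dd_Smed_v6_574_0_1 it was 0.25 at 2 days and 1.85 at 0 h.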

How the results depend on the processing

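The count of IDs called between 2 days and 0 h ran from 7188 to 10103 over 16 alternatives, and from 7188 to 8822 with each library left out in turn. The count past 1.5-fold ran from 1866 to 2761 over 14. The 4 IDs named for their change over time kept direction and call in all 16. The number of IDs whose change differed between RNAi conditions, 12 with the settings of the report, was 19 with no filter on low counts, 36 in a fit over all 24 libraries, 52 with the likelihood ratio test, 57 with DESeq2 (5789 IDs had no adjusted p) and 3 to 35 with 1 library left out. The cause of these shifts was not tested. IDs near absent at 0 h and present at 2 days, 27 by the limits of the report, numbered 10 with limits of 0.25 and 1 CPM, 10 with 0.5 and 2 CPM and 41 when scaled by total counts. The reverse kind, 39 by those limits, numbered 15 and 25 with the same 2 changes of limits. Both pairs of limits are stricter by construction.

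Replicate numbers do not pair the samples by a label. Same-numbered libraries at 2 days and 0 h had deviations that correlated at 0.057 to 0.14, and 2 of 4 correlated best with their own number. With the replicate block 8269 IDs were called between 2 days and 0 h, 7969 of them also without it, 2063 past 1.5-fold, and 16 for the difference between conditions. The filter left out 10551 IDs, none with a mean above 0.977 CPM, for which these depths give little precision.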

Other observations

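At 4 days, outside the compared interval, dd_Smed_v6_10584_0_1 had 10.6 to 13.3 CPM under egr-2 RNAi and 22.5 to 27.1 CPM under control RNAi, with no overlap, while at 2 days the ranges overlapped (28.9 to 47.1 CPM under egr-2 RNAi and 32.8 to 45.2 CPM under control RNAi). This contig was chosen for its change over time, and its difference at 4 days was not tested here. The share of all tested IDs whose conditions do not overlap at 4 days was not computed.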
